A study of Mus musculus with 2 samples.

Results

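Type I interferon-stimulated genes are the antiviral genes that most cells switch on after exposure to interferon-alpha or interferon-beta. A list of 36 such mouse genes was followed, gene by gene, through the immune cells of melanomas that lack or carry the gene for farnesyl diphosphate synthase. The genes were found by their symbols in the deposited feature lists, and 35 of the 36 had a row among the 32285 genes; Mx1 was not analysed here. The genes were grouped by role into the ISG15 system, the IFIT, OAS, IFI200 and Schlafen families, RNA sensors, blockers of viral replication, transcription factors, PARP proteins with DTX3L, and other induced genes.

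The samples were FDPS-knockout B16-F10 tumours and WT B16-F10 tumours. B16-F10 is a mouse melanoma cell line, and FDPS (farnesyl diphosphate synthase) is the enzyme of the mevalonate pathway that makes the isoprenoid farnesyl diphosphate. The knockout was in the injected tumour line, so the sequenced immune cells came from hosts for which the labels give no genotype, strain or age, nor do they say whether the knockout line was a single clone. The study asked how the immune infiltrate differs in FDPS-deficient tumours. Tumours were taken on day 14 after injection, with 3 tumours per group, and viable CD45-positive cells, which are white blood cells, were sorted from them. The cells of a group went into 1 single-cell RNA library made in droplets. Nothing ties a cell to its tumour, so there is no replicate, no test and no p-value. Every difference below is between 2 libraries, and every interval covers counting error only.

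Type I interferons bind a receptor of IFNAR1 and IFNAR2, whose kinases JAK1 and TYK2 start a phosphorylation signal. A complex that contains STAT2 and IRF9 then binds the interferon-stimulated response element (ISRE), a repeat of GAAA, in the promoters of the induced genes. The products block viral entry, translation and replication, and several of them (the RNA sensors, IRF7 and STAT2) feed back on interferon production or signalling. Interferon-gamma acts through another element (GAS) and induces an overlapping set of genes.

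Promoter stretches of 6 genes that were lower in the FDPS-KO library in several cell classes are shown first, beside a pair of genes (Stat2 and Slfn8) that were above 0 in most classes, so that the element can be seen in both. Of the 35 genes, 26 had a promoter entry in the RefSeq tables (build GRCm38.p6, 250 bases before to 50 after the start site). Usp18, Oas2, Dhx58, Zbp1, Ifi204, Parp9, Parp14, Ifi27l2a and Rtp4 are named only. Capitals mark an ISRE-like match, which is GAAANNGAAA on either strand (TTTCNNTTTC when read on the gene's strand). Each sequence reads 5′ to 3′ on the strand of its gene.
Isg15 (chr4:156200855-156200916, minus strand, bases -98 to -37 of the start site): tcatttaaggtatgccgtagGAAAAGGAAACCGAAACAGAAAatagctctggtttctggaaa
Ifit1 (chr19:34640765-34640833, plus strand, bases -124 to -56 of the start site): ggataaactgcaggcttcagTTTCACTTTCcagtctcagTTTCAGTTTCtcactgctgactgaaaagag
Ifit3 (chr19:34583353-34583436, plus strand, bases -176 to -93 of the start site): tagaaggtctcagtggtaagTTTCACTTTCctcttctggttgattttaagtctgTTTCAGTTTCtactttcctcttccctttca
Rsad2 (chr12:26456543-26456592, minus strand, bases -140 to -91 of the start site): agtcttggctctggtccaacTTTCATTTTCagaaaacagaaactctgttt
Bst2 (chr8:71537567-71537622, minus strand, bases -150 to -95 of the start site): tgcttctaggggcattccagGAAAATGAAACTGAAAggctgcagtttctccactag
Oas1a (chr5:120907526-120907565, minus strand, bases -40 to -1 of the start site): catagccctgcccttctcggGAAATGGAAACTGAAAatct
Stat2 (chr10:128270256-128270305, plus strand, bases -242 to -193 of the start site): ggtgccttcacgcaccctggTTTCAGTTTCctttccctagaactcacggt
Slfn8 (chr11:83020829-83020878, minus strand, bases -68 to -19 of the start site): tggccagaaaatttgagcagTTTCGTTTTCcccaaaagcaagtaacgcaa

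An ISRE-like match lay in the promoters of 15 of the 26 genes (57.7%), while 3.99% of all 27025 genes and 3.44% of all 32851 promoters in the tables held one. With a C required after the second GAAA, 11 of the 26 genes (42.3%) held a match, against 0.944% of all genes. A GAS-like match (TTCNNNGAA) lay in 5 of the 26 (19.2%), against 9.55% of all genes. The 3 ISRE-like matches of Isg15 overlapped each other, as did those of Oas1a and those of Bst2, and 1 match of Bst2 also overlapped a GAS-like match. The window of 11 genes held no ISRE-like match, among them Isg20 and Irf7. In monocytes the median log2 ratio was -1.37 for the 15 genes with a match and -1.52 for the 11 without, and in macrophages -0.40 and -0.58. In CD4 T cells the order was the other way, at -0.88 for 15 genes with a match and -0.64 for 9 without. A match is a description of these letters and was not tested for binding.

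**Figure D1:**
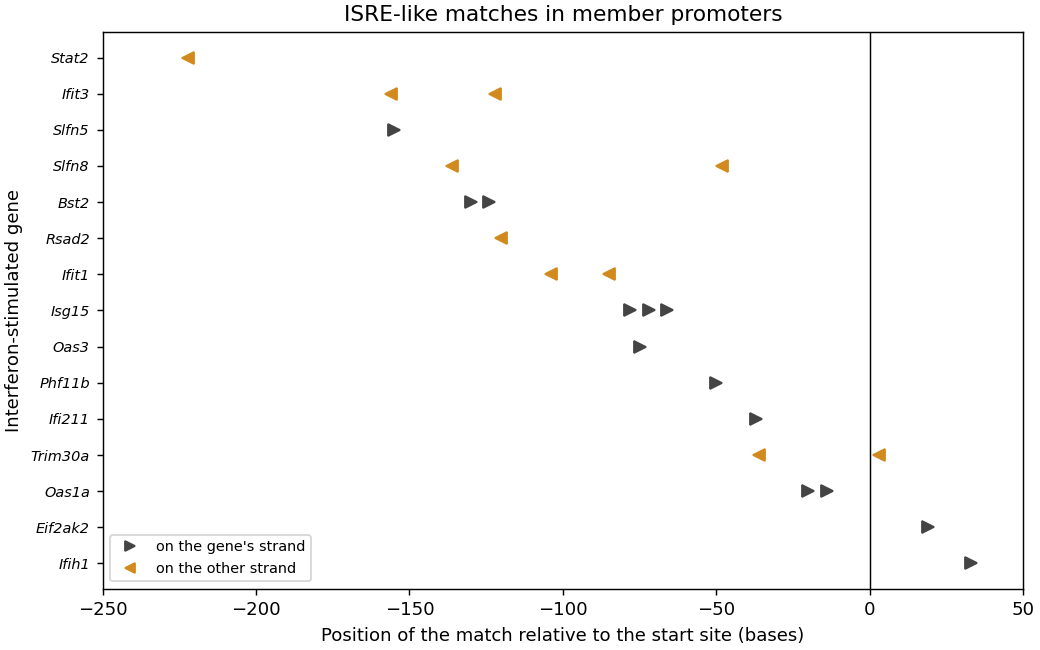
Position of each ISRE-like match relative to the start site (in bases, x axis) for the 15 genes with a match; triangles give the strand of the match. The matches lie between base -222 (Stat2) and base 33 (Ifih1), and those of Isg15, Bst2 and Oas1a come in overlapping runs.

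The FDPS-KO library held 9130 barcodes and 127186298 unique molecular identifiers (UMIs, each a counted RNA molecule), and the WT library 10882 barcodes and 208936136 UMIs. After filters on mitochondrial reads and doublets, 8062 FDPS-KO and 8595 WT cells were used. The labels call the cell type melanoma, but 97.8% of FDPS-KO and 89.6% of WT cells had a UMI of Ptprc, the gene of CD45. In the cells with melanoma markers, Fdps was at 89.3 CPM (18 cells) in the FDPS-KO library, against 400.2 CPM (432 cells) in the WT library. Fdps was also lower in the FDPS-KO library in all 11 immune cell classes compared below. It was at 63.6 CPM in FDPS-KO and 262 CPM in WT cDC2 (dendritic cells). In CD8 T cells it was at 27.8 and 78.3 CPM, and in macrophages at 20.3 and 40.8 CPM. The lower level was thus not particular to the cells with melanoma markers, and its cause was not tested. Cells were assigned to classes by marker genes that exclude the 35 genes, and a class name below means cells that are like that type by those markers. The libraries shared 30 barcode sequences, 14 of them among the used cells. For each class the UMIs of a library were added up and given as CPM, the UMIs of a gene per 1000000 UMIs of that class, and ratios are log2 of (CPM + 5) in the FDPS-KO library over the same in the WT library. A gene counted as measured in a class at a mean of at least 10 CPM over the 2 libraries and as past the fold at 1.5-fold. A gene under 10 CPM in 1 library could thus be measured through its level in the other. With a minimum of 50 cells in either library, 11 classes were compared.

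The median log2 ratio of the interferon-stimulated genes was below 0 in 10 of 11 classes and, with all clusters summed, lowest in monocytes. With only clusters that held cells of both libraries, it was -0.45 in monocytes, -0.46 in CD4 T cells and -0.63 in NK cells. With all clusters summed, 31 of 35 in monocytes were at least 1.5-fold lower and 0 were higher, while 12.9% of all 8049 measured genes were lower and 16.2% higher. The median log2 ratio of the 35 genes was -1.30, against 0.08 for all measured genes. In CD4 T cells 23 of 32 were lower and 0 higher (median -0.88), against 8.91% of all genes lower and 11.9% higher. In NK cells 16 of 33 were lower and 0 higher (median -0.55), against 5.25% lower and 7.9% higher. CD8 T cells and cDC1, a dendritic cell (DC) type that presents antigen to CD8 T cells, had medians near the median of all genes. Of 28 genes in CD8 T cells, 5 were lower and 3 higher (median 0.10, all genes 0.14), against 7.4% of all genes lower and 17.8% higher. In cDC1 6 of 35 were lower and 3 higher (median -0.07, all genes 0.09), against 5.94% lower and 11.8% higher.

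**Figure D2:**
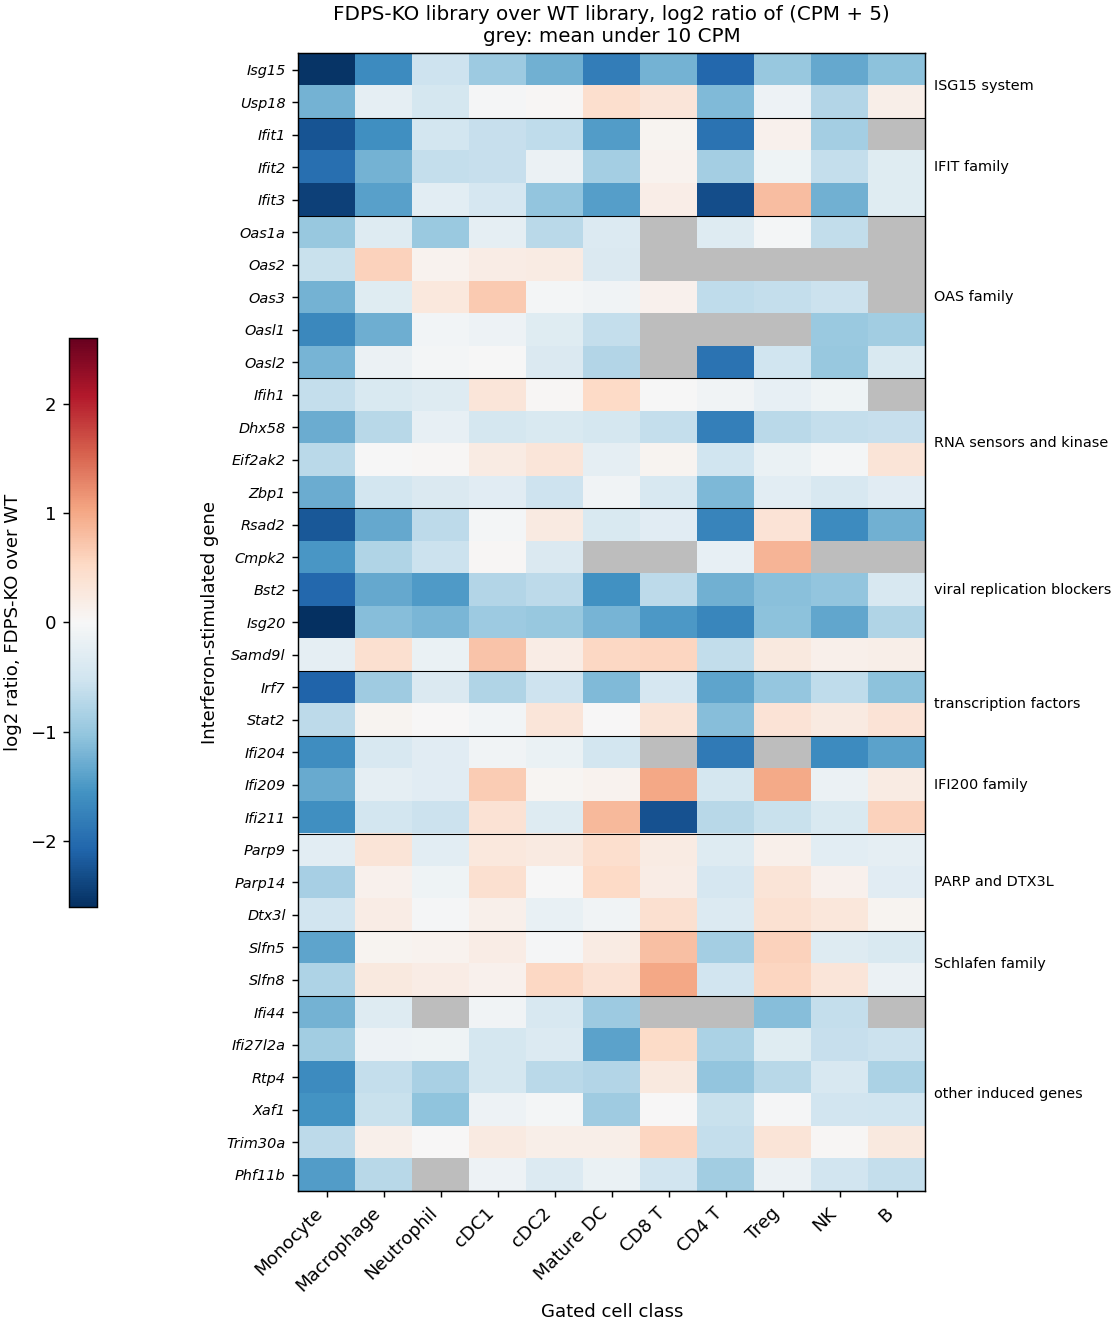
Log2 ratio of (CPM + 5), FDPS-KO over WT, of each gene (rows, grouped by role) in each class (columns); blue is lower and red higher in the FDPS-KO library, and grey marks a mean under 10 CPM. The monocyte column is blue for 35 of 35 genes, and the rows of Isg15, Bst2 and Isg20 are blue in 11 of 11 classes.

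A few genes were lower nearly everywhere. Isg20, an exonuclease that degrades viral RNA, was past the fold in 11 of 11 classes, with log2 ratios from -2.60 in monocytes to -0.79 in B cells. Isg15, the ubiquitin-like protein that is attached to other proteins during infection, was past it in 10 of 11 and below 0 in all 11, from -2.55 in monocytes to -0.54 in neutrophils. Bst2, also called tetherin, which holds budding virus at the cell surface, was past it in 10 of 11 (from -2.04 in monocytes to -0.41 in B cells). Irf7, the transcription factor that drives interferon-alpha genes, was past it in 8 of 11 (from -2.09 in monocytes to -0.38 in neutrophils). Where the class of a cell was taken from its cluster, Isg20 and Bst2 in B cells turned to 0.40 and 0.36. Isg20 in cDC1 was then at -0.11, within the fold. In macrophages Isg20 and Irf7 turned to 0.22 and 0.09 when only clusters with cells of both libraries were used.

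Other genes of the list were near or above 0 in most classes. Stat2, a subunit of the complex that binds the ISRE, was below 0 in 3 of 11 classes, from -1.10 in CD4 T cells to 0.37 in B cells. Samd9l, an inhibitor of viral translation, ran from -0.64 in CD4 T cells to 0.74 in cDC1. Slfn8 of the Schlafen family ran from -0.80 in monocytes to 1.02 in CD8 T cells, and Parp9, which works in a complex with the ubiquitin ligase DTX3L, from -0.34 in CD4 T cells to 0.44 in mature DCs. Ratios differed with the length of the gene on the genome (its span) in all measured genes: in monocytes the bin of shortest genes had a median of -0.12 and the bin of longest genes 0.31. Among the interferon-stimulated genes, the shorter ones had a median of -1.58 and the longer ones -0.86 in monocytes, and -0.75 and -0.23 in macrophages. With the median of genes of like span subtracted, the monocyte median was -1.27 and the macrophage median -0.22. Isg15, Bst2, Irf7 and Isg20 had short spans (1395, 3202, 3776 and 6973 bases), against a median of 16702 for the list in monocytes. With span subtracted, Bst2 was within the fold in cDC1 (-0.44), cDC2 (-0.34) and CD8 T cells (-0.37), and Irf7 in cDC1 (-0.45). In monocytes Isg15, Bst2, Irf7 and Isg20 were then at -2.40, -1.89, -1.94 and -2.47, still past the fold.

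Monocytes here are cells of the monocyte and macrophage lineage with few UMIs of C1qa, C1qb and C1qc. The 10 macrophage markers summed to 1549 CPM in FDPS-KO monocytes and 2877 CPM in WT monocytes. The 6 monocyte markers summed to 1758 CPM in FDPS-KO monocytes and 2269 CPM in WT monocytes. The class may thus include macrophages low in the C1q genes. Markers of DCs were higher in FDPS-KO monocytes. The 6 cDC2 markers summed to 449 CPM in FDPS-KO and 66.0 CPM in WT monocytes. The 5 conventional DC markers summed to 162 and 82.6 CPM, and the 7 cDC1 markers to 522 and 317 CPM. Whether the class holds DCs was not tested. The 35 genes together made up 5193 CPM in FDPS-KO monocytes, against 13432 CPM in WT monocytes. By role, the IFIT family had the lowest median ratio (-2.25), followed by the replication blockers (-2.04) and the ISG15 system (-1.89). Isg15 was at 253 CPM in FDPS-KO monocytes, against 1504 CPM in WT monocytes, a log2 ratio of -2.55, and without the added 5 CPM it was 5.94-fold lower (95% interval 5.71 to 6.18). Ifit3, which with Ifit1 and Ifit2 binds foreign RNA and blocks its translation, was at 41.7 CPM in FDPS-KO monocytes, against 245 CPM in WT monocytes, a log2 ratio of -2.42. Ifit1 was at 42.8 CPM in FDPS-KO monocytes, against 223 CPM in WT monocytes, and Ifit2 at 116 CPM in FDPS-KO monocytes, against 468 CPM in WT monocytes. All 3 IFIT genes were thus past the fold, as was Usp18, the protease that removes ISG15 and restrains receptor signalling (47 against 118 CPM).

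The blockers of viral replication in monocytes differed by gene. Isg20 had the lowest ratio of all 35, at 13.6 CPM in FDPS-KO monocytes, against 108 CPM in WT monocytes, a log2 ratio of -2.60. Rsad2 (viperin), which makes a chain-terminating nucleotide, was at 151 CPM in FDPS-KO monocytes, against 713 CPM in WT monocytes, and Cmpk2, the nucleotide kinase encoded next to it, at 24.7 CPM in FDPS-KO monocytes, against 80.1 CPM in WT monocytes. Bst2 was at 139 CPM in FDPS-KO monocytes, against 586 CPM in WT monocytes. Samd9l was within the fold, at 155 CPM in FDPS-KO monocytes, against 182 CPM in WT monocytes, a log2 ratio of -0.22. Of the sensors, Dhx58 and Ifih1, helicases that bind double-stranded RNA, were at 29.6 against 80.0 CPM and 122 against 191 CPM in FDPS-KO against WT monocytes. Zbp1, a sensor of Z-form nucleic acids, was at 173 against 428 CPM, and Eif2ak2, the kinase PKR that halts translation, at 94.8 against 157 CPM. All 4 sensors were past the fold.

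The remaining families in monocytes went the same way with smaller ratios in the PARP group. Several OAS proteins make oligoadenylates that activate RNase L, and 4 of the 5 OAS family genes were past the fold. Oasl1 was lowest at 55.6 CPM in FDPS-KO monocytes, against 189.5 CPM in WT monocytes, and Oas2 was within the fold at 73.2 CPM in FDPS-KO monocytes, against 111 CPM in WT monocytes. Oas1a, Oas3 and Oasl2 were at 40.9 against 86.3 CPM, 43.7 against 108 CPM and 152 against 358 CPM. The IFI200 genes, which include nuclear DNA sensors, were all past the fold, with Ifi204 at 256 CPM in FDPS-KO monocytes, against 789.8 CPM in WT monocytes, Ifi209 at 188 against 474 CPM and Ifi211 at 134 against 419 CPM. The transcription factor genes Irf7 and Stat2 were both past the fold, at 104 against 461 CPM and 161 against 264 CPM. Of the PARP group 1 of 3 was past it (Parp14, 271 against 494 CPM), while Parp9 and Dtx3l were at 123 against 150.3 CPM and 85.7 against 123 CPM. Both Schlafen genes were past the fold, with Slfn5 at 221 against 578 CPM. The other 6 genes were all past the fold; the most abundant was Ifi27l2a at 1267 CPM in FDPS-KO monocytes, against 2379 CPM in WT monocytes, and Rtp4 was at 78 against 252 CPM. Xaf1, a partner of the apoptosis inhibitor XIAP, was at 66.8 against 207 CPM, Phf11b at 98.2 against 279 CPM, Ifi44 at 7.86 against 25.3 CPM and the TRIM protein Trim30a at 269 against 433 CPM. Ifi44 counted as measured only through its WT level. The 7 melanoma markers summed to 402 CPM in FDPS-KO monocytes (1 of 7 at 10 CPM or more), against 551 CPM in WT monocytes (5 of 7), and with free RNA subtracted the median ratio of the 35 genes was -1.30.

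**Figure D3:**
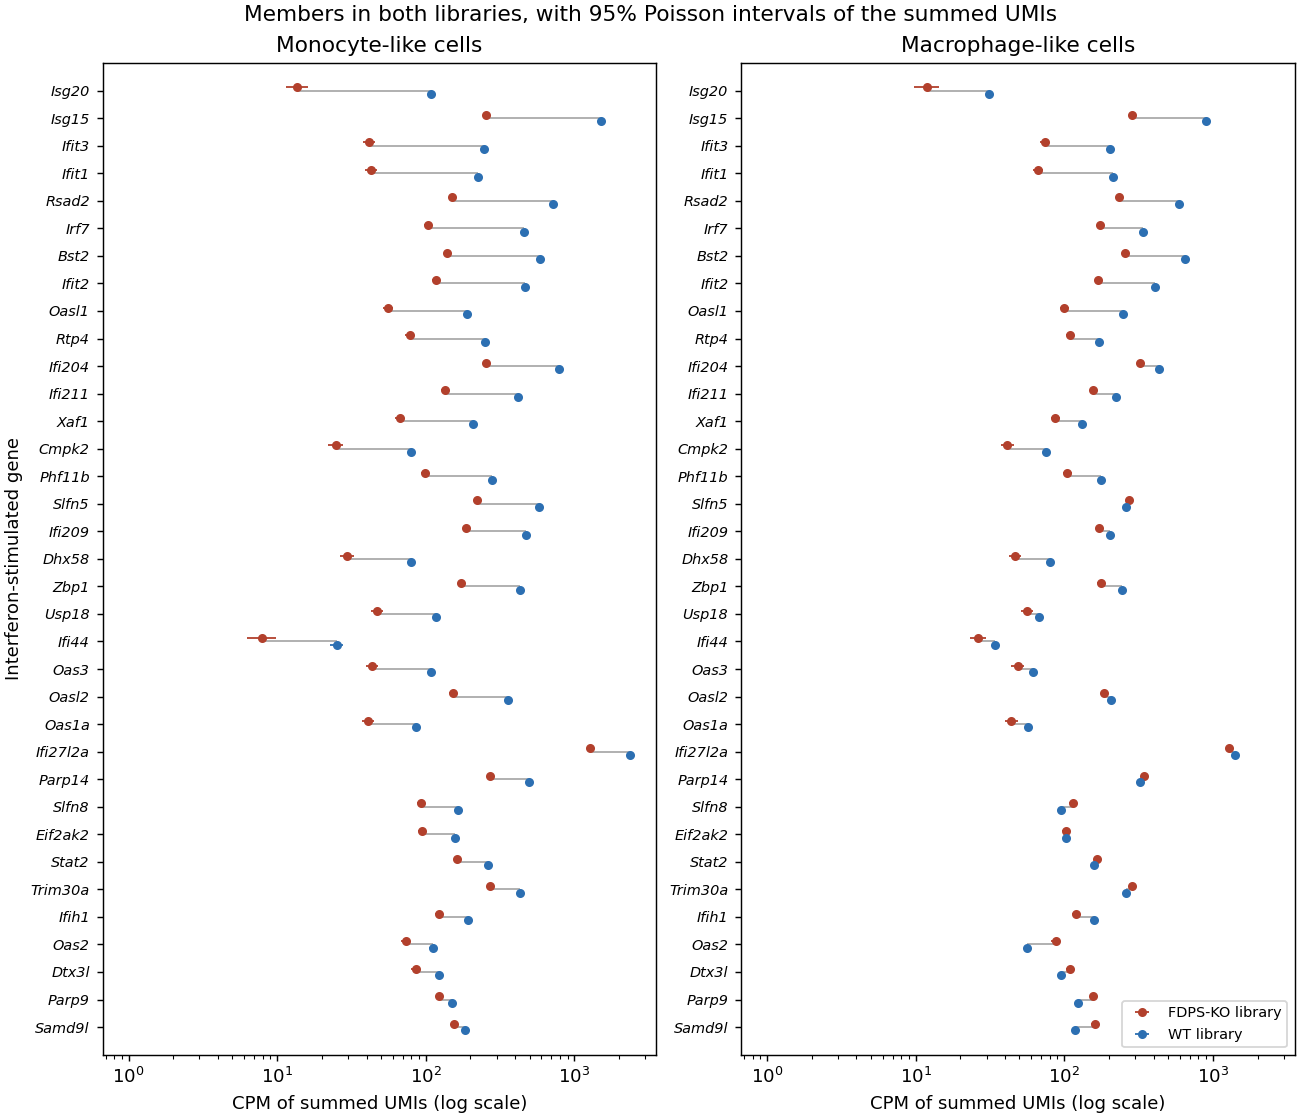
Level of each gene (CPM of summed UMIs, log scale, x axis) in monocytes and macrophages of the FDPS-KO library (red) and the WT library (blue), ordered by the monocyte ratio; bars are 95% Poisson intervals of the summed UMIs. In monocytes the red point lies left of the blue for 35 of 35 genes, and in macrophages for 26 of 35.

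In macrophages Isg15 and the IFIT genes were again among the lowest, while many other genes lay near 0. Of 35 genes 13 were lower and 1 higher (median -0.40, all genes 0.00), against 15.6% of all genes lower and 15.6% higher, and the sum was 6167 CPM in FDPS-KO macrophages, against 8914 CPM in WT macrophages. Isg15 was at 288 CPM in FDPS-KO macrophages, against 903 CPM in WT macrophages, a log2 ratio of -1.63. Ifit1 and Ifit3 were at 66.8 against 213 CPM and 73.7 against 204 CPM (log2 ratios -1.60 and -1.41). The gene past the fold upwards was Oas2, at 87.6 CPM in FDPS-KO macrophages, against 55.9 CPM in WT macrophages, a log2 ratio of 0.60. The 13 lower genes held 3 of 3 IFIT genes and 4 of 5 replication blockers, but 0 of 3 IFI200 genes and 0 of 3 of the PARP group. Dividing cells (with a UMI of Mki67 or Top2a) made up 25.4% of FDPS-KO and 49.1% of WT macrophages, and without them 17 of 35 genes were lower and 0 higher (median -0.57), against 13.2% of all genes lower and 19.5% higher.

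The monocyte and macrophage classes of the libraries were made up of different clusters, and the size of the difference depended on this. Clusters were made without the 35 genes and without regard to class. Near copies of the 35 genes, other interferon-stimulated genes and Ifnb1 were not left out. The clusters can therefore partly sort cells by interferon response, and a comparison within clusters is not independent of it. Of FDPS-KO monocytes 363 of 751 (48.3%) lay in a cluster led by Retnla, Lyz1 and Fcrls, against 3 of 1385 WT monocytes; the 35 genes summed to 2881 CPM there. A cluster led by Spp1 and Arg1 held 22 FDPS-KO monocytes (2.93%), against 569 WT monocytes (41.1%), with sums of 11276 CPM in FDPS-KO and 15634 CPM in WT cells. Among macrophages, 6 FDPS-KO cells and 568 WT cells (19.6%) lay in a cluster led by Gdf15, Ifnb1 and Tnfsf15, in which the WT cells summed to 12275 CPM. Another 138 FDPS-KO and 4 WT macrophages lay in a cluster led by Cd163 and Cd209f, at 6509.9 CPM in FDPS-KO cells.

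Within clusters that held both libraries, monocyte genes were lower by less, and the count of lower macrophage genes was near or under the background. In the Vcan and Spon1 cluster (242 FDPS-KO and 568 WT monocytes) 9 of 35 genes were lower and 0 higher, with a median of -0.29, against 13% of all genes lower. Isg15 was there at 496 CPM in FDPS-KO cells, against 1349 CPM in WT cells, and Rsad2 at 317 CPM in FDPS-KO cells, against 329.8 CPM in WT cells. In the Spp1 cluster (22 and 569 cells) 16 of 35 were lower (median -0.45), against 20.3% of all genes. In the Ace and Adgre4 cluster (81 and 190 cells) 14 of 34 were lower (median -0.48), against 10.5%. These clusters held 345 of 751 FDPS-KO and 1327 of 1385 WT monocytes. Summed over them, 13 of 35 monocyte genes were lower (median -0.45), against 11.7% of all genes.

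In macrophages of the Vcan cluster (144 FDPS-KO and 355 WT cells) 2 of 35 genes were lower and 4 higher, against 16.2% and 16.4% of all genes, with a median of 0.24. In those of the C1qa and Ms4a7 cluster (122 and 1132 cells) 9 of 34 were lower and 5 higher (median -0.06), against 21.5% and 22.5%. Summed over both clusters, 1 of 35 was lower and 8 were higher (median 0.31), against 21.6% and 18.8% of all genes, while the mix of these clusters differed between the libraries. With both clusters weighted equally, 4 were lower and 3 higher (median 0.07, all genes 0.06), against 18.5% and 18.8% of all genes. The macrophage median was thus above 0 in both of these comparisons. Isg15 in the C1qa cluster was at 111 CPM in FDPS-KO cells, against 378 CPM in WT cells, and Bst2 at 234 CPM in FDPS-KO cells, against 577 CPM in WT cells. Slfn5 was there at 235 CPM in FDPS-KO cells, against 174 CPM in WT cells. Isg15 and Bst2 were thus lower within this cluster, and Slfn5 was not.

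**Figure D4:**
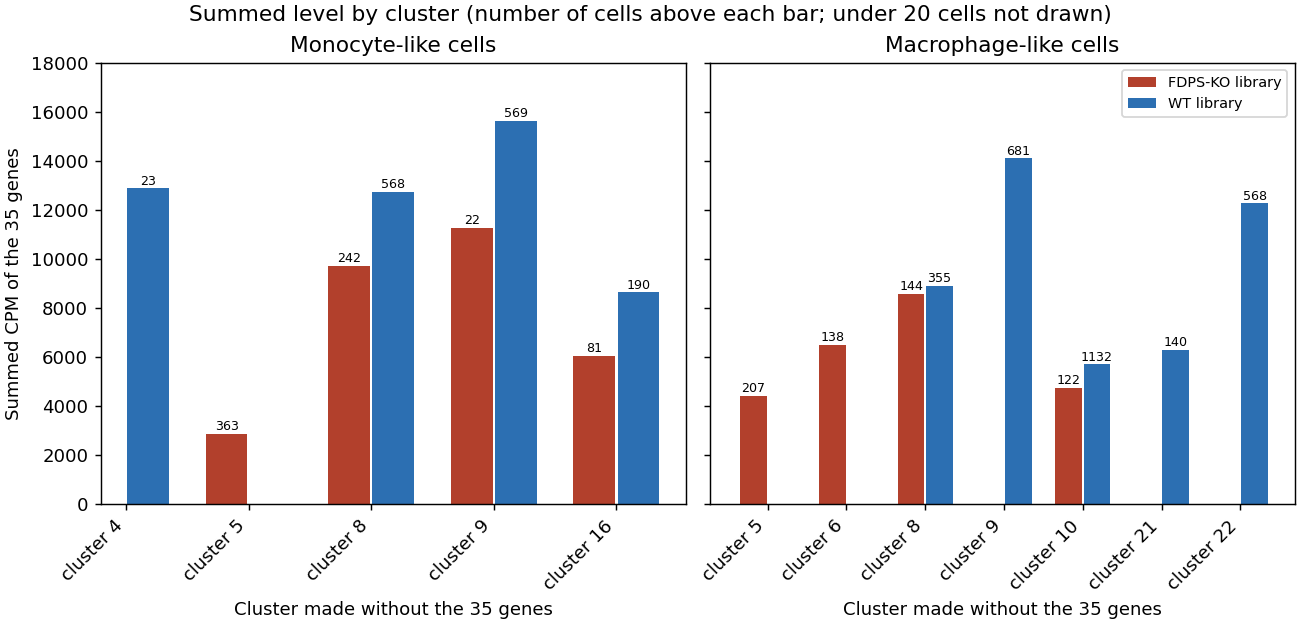
Summed CPM of the 35 genes (y axis) by cluster in monocytes and macrophages, FDPS-KO (red) beside WT (blue), with the number of cells above each bar; a bar is drawn for at least 20 cells. The FDPS-KO bar is below the WT bar in each of the 5 cluster pairs with both bars, and the highest bars are the WT cells of cluster 9 (Spp1 and Arg1).

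UMIs of the interferon genes themselves were sparse. Ifnb1, which encodes interferon-beta, had 26 UMIs in 9 FDPS-KO cells, against 1225 UMIs in 166 WT cells. Of these WT UMIs 1172 were in macrophages, in 121 of 2900 cells (4.17%, 95% interval 3.47 to 4.97), while 1 of 654 FDPS-KO macrophages (0.153%) had a UMI. As a background for free RNA, among CD8 T cells 1 of 1991 FDPS-KO cells (0.0502%) and 14 of 1769 WT cells (0.791%) had one, with a median depth of 13112 UMIs in FDPS-KO and 21980 UMIs in WT cells, against 10856.5 UMIs in FDPS-KO and 19458 UMIs in WT macrophages. The cluster that Ifnb1 helped to define held 1023 of the UMIs, in 87 of 592 WT cells (14.7%), and 0 in its 7 FDPS-KO cells, where a limit of 3 cells allows a share of cells with a UMI of up to 42.9%. Of the other genes in a list of 20 interferon genes, Ifna2 had 1 in the FDPS-KO library and 19 in the WT library, and Ifnk 18 in each.

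The genes of the receptor and its signal went in both directions. In monocytes 2 of 6 were lower and 1 higher, against 12.9% and 16.2% of all genes. Ifnar2, a receptor chain, was at 165 CPM in FDPS-KO monocytes, against 319.6 CPM in WT monocytes (log2 ratio -0.93). The kinase gene Tyk2 was at 94.8 CPM in FDPS-KO monocytes, against 44.2 CPM in WT monocytes (log2 ratio 1.02). In macrophages 0 of 6 were lower and 1 higher, against 15.6% and 15.6% of all genes. Of the 6 in CD8 T cells 0 were lower and 3 higher, against 7.4% and 17.8% of all genes. Ifnar2 was at 94.2 CPM in FDPS-KO CD8 T cells, against 28.6 CPM in WT CD8 T cells (log2 ratio 1.56). In NK, CD4 T and B cells none of the 6 was past the fold in either direction. Of all genes in these classes 5.25% to 9.31% were lower and 7.9% to 15.6% higher.

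Neutrophils had the highest level of any class for 19 of the 35 genes in the FDPS-KO library and for 15 in the WT library. The sum was 11579 CPM in FDPS-KO neutrophils, against 15072 CPM in WT neutrophils, and 7 of 33 genes were lower and 0 higher (median -0.29, all genes -0.09), against 27.2% of all genes lower and 19% higher. The share of lower genes was thus under the background with the main choice of cells, and above it with several other choices. Without 1 WT cell outside the main cluster 10 of 33 were lower, against 24.7% of all genes, and with class taken from the cluster 15 of 33, against 20.1%. A mitochondrial limit of 5% gave 9 of 33, against 24.0%, and no removal of doublets 9 of 34, against 24.9%. Without dividing cells 10 of 33 were lower, against 26.1%. With each cell weighted equally the share stayed under the background, at 7 of 33 against 27.5%. Bst2 was at 66.5 CPM in FDPS-KO neutrophils, against 195 CPM in WT neutrophils, a log2 ratio of -1.48, Isg20 at 213 against 491 CPM and Xaf1 at 103 against 217 CPM. Isg15 and Rsad2 reached their highest levels here, at 1754 against 2548 CPM and 1479 against 2374 CPM. The neutrophils numbered 84 in the FDPS-KO and 115 in the WT library.

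In the conventional DCs a minority of the genes were lower, but a larger share than of all genes. For cDC1 this was 6 of 35, against 5.94% of all genes, and its clusters differed. A cluster led by the cDC2 marker Cd209a held 88 FDPS-KO and 37 WT cDC1. There 10 of 35 genes were lower and 0 higher (median -0.41), against 13.7% of all genes lower. The Clec9a and Xcr1 cluster held 261 and 138 cells, with 4 of 29 lower and 3 higher (median 0.09), against 5.89% and 12.6%. In cDC1 Isg20, Isg15 and Irf7 were lowest, with Isg15 at 109 CPM in FDPS-KO cDC1, against 216 CPM in WT cDC1, a log2 ratio of -0.95. Samd9l, Oas3 and Ifi209 were past the fold upwards there, with Samd9l at 204 CPM in FDPS-KO cDC1, against 119.5 CPM in WT cDC1, a log2 ratio of 0.74, and Oas3 at 24.7 against 13.5 CPM. In cDC2, which present antigen mainly to CD4 T cells, 7 of 35 were lower and 0 higher (median -0.19, all genes 0.10), against 10.9% lower and 19.4% higher. Isg15 was at 198 CPM in FDPS-KO cDC2, against 476 CPM in WT cDC2, and Ifit3 at 47.2 CPM in FDPS-KO cDC2, against 102 CPM in WT cDC2.

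In mature DCs, which carry Ccr7 and Fscn1, 13 of 34 were lower and 1 higher (median -0.36, all genes 0.12), against 13.6% lower and 20.1% higher. Isg15 was at 211 CPM in FDPS-KO mature DCs, against 746 CPM in WT mature DCs, a log2 ratio of -1.80, and Bst2 at 87 CPM in FDPS-KO mature DCs, against 271 CPM in WT mature DCs. Ifi211 was the gene past the fold upwards, at 184 CPM in FDPS-KO mature DCs, against 99.9 CPM in WT mature DCs, a log2 ratio of 0.85. Without 4 FDPS-KO and 5 WT cells that lay outside the main cluster of the class, 8 were lower and 6 higher (median -0.05), against 13.6% and 20.8% of all genes, while Isg15 was at -1.68. Plasmacytoid DCs (pDCs), the specialised producers of interferon-alpha, had 155 FDPS-KO and 31 WT cells, too few for a ratio. Bst2, a pDC marker in mice, was at 2786 CPM in FDPS-KO pDCs, against 3089 CPM in WT pDCs, and Irf7 at 220.1 CPM in FDPS-KO pDCs, against 249 CPM in WT pDCs.

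In CD8 T cells single genes differed in both directions while the median was close to that of all genes. Ifi211 was lowest, at 6.05 CPM in FDPS-KO CD8 T cells, against 48.1 CPM in WT CD8 T cells, a log2 ratio of -2.27. It counted as measured only through its WT level. Isg20 was at 14.5 CPM in FDPS-KO CD8 T cells, against 49.9 CPM in WT CD8 T cells, and Isg15 at 37.8 CPM in FDPS-KO CD8 T cells, against 95.9 CPM in WT CD8 T cells. Upwards were Slfn8 at 63.9 CPM in FDPS-KO CD8 T cells, against 29.1 CPM in WT CD8 T cells, a log2 ratio of 1.02, Ifi209 at 106 against 50.2 CPM and Slfn5, which restrains growth of T cells, at 19.3 against 9.05 CPM. Slfn5 counted as measured only through its FDPS-KO level. Cells with a UMI of the division genes Mki67 or Top2a made up 59.5% of FDPS-KO and 79.3% of WT CD8 T cells. Without such cells 8 of 32 genes were lower and 3 higher, against 10.6% and 19.3% of all genes. The 3 genes that were higher depended on the clusters, since with clusters weighted equally 0 were higher, Slfn8 was at 0.40, Ifi209 at 0.19 and Slfn5 at -0.40.

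The clusters of CD8 T cells differed among themselves. In the cluster led by Smyd1 and Cxcr6 (813 FDPS-KO and 429 WT cells) 14 of 28 genes were lower and 0 higher (median -0.58), against 4.7% of all genes lower. In a cluster led by Lef1, Ly49 genes and Trdc, a gamma-delta T cell marker (143 and 31 cells), 22 of 33 were lower and 0 higher (median -0.79), against 12.6%. In the Tcf7 and S1pr1 cluster (371 and 58 cells) 0 were lower and 7 of 30 higher (median 0.21), against 13.2% of all genes higher. In the histone gene cluster, which held the most WT cells (554 and 821 cells), 5 of 21 were lower and 2 higher (median -0.09), against 4.73% and 11.5%. CD8 T cells in the Cd4 and Il21 cluster (101 and 33 cells) had 10 of 26 lower and 1 higher (median -0.34), against 9.81% and 19.6%. A cluster led by granzymes C to G held 5 FDPS-KO and 394 WT cells and gave no ratio.

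In CD4 T cells, helper cells without Foxp3, the FDPS-KO library had 671 cells and the WT library 57. All 32 measured genes were below 0. Ifit3 was at 15 CPM in FDPS-KO CD4 T cells, against 94.3 CPM in WT CD4 T cells, a log2 ratio of -2.31, Isg15 at 52.2 CPM in FDPS-KO CD4 T cells, against 229 CPM in WT CD4 T cells and Oasl2 at 11 against 55.7 CPM. When class was taken from the cluster, 4 of 29 were lower and 0 higher (median -0.14), against 9.34% and 17.8% of all genes. The 1 cluster with enough cells of both libraries held 23 WT cells, and there 15 of 34 were lower and 2 higher (median -0.46), against 17.5% and 23.6% of all genes. In Tregs, the Foxp3-positive T cells, 8 of 32 were lower and 4 higher (median -0.12, all genes 0.10), against 14.3% lower and 20.8% higher. Ifi44 was lowest, at 4.78 against 16 CPM, and counted as measured only through its WT level. Bst2 was at 147 CPM in FDPS-KO Tregs, against 318 CPM in WT Tregs, and Isg20 at 82.9 against 179.7 CPM. Upwards were Ifi209 (260.5 against 128 CPM), Cmpk2 (22.9 against 10.1 CPM) and Ifit3 (22.9 against 11 CPM), and the fourth higher gene was Slfn5 (52.1 against 32.9 CPM). Ifi27l2a had its highest level of any class in Tregs, at 2489 CPM in FDPS-KO Tregs, against 3079.7 CPM in WT Tregs.

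In NK cells, innate killers of transformed cells, the lower genes were of low level. Ifi204 was at 6.95 CPM in FDPS-KO NK cells, against 32.3 CPM in WT NK cells, a log2 ratio of -1.64, Rsad2 at 6.35 CPM in FDPS-KO NK cells, against 30.3 CPM in WT NK cells and Isg20 at 5.27 against 21.2 CPM. These 3 genes were under 10 CPM in FDPS-KO NK cells and counted as measured only through their WT level. With RNA from outside the cells subtracted, Rsad2 was at -1.16 and Ifi204 at -1.48. All 3 IFIT genes were past the fold (median -0.88), as were Isg15 (26 against 73.2 CPM) and Usp18 (25.8 against 47.2 CPM), but none of the PARP or Schlafen genes was. In B cells 9 of 28 were lower and 1 higher (median -0.36, all genes 0.11), against 9.31% lower and 15.6% higher. Isg15 was at 15.8 CPM in FDPS-KO B cells, against 38.7 CPM in WT B cells, and Ifi211 was the higher one at 21.6 against 12.6 CPM.

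Macrophage and melanoma markers were higher in the WT lymphocytes, while some other marker lists were not. The 10 macrophage markers summed to 31.9 CPM in FDPS-KO NK cells (1 of 10 at 10 CPM or more), against 262 CPM in WT NK cells (7 of 10), and to 253 CPM in FDPS-KO B cells, against 484 CPM in WT B cells. The 7 melanoma markers summed to 24.1 CPM in FDPS-KO NK cells (1 of 7), against 227 CPM in WT NK cells (5 of 7). In CD8 T cells the 6 monocyte markers summed to 101 CPM in the FDPS-KO library and 40.9 CPM in the WT library, with 1 of 6 at 10 CPM or more in each. Macrophage markers went the other way there, at 31.2 CPM in FDPS-KO and 130 CPM in WT cells, as did melanoma markers, at 13.6 and 80.5 CPM. The estimated free-RNA share was 3.31% in FDPS-KO and 2.22% in WT CD8 T cells. This share is scaled to all RNA of the same library, so the libraries are not on 1 scale. With a free-RNA share of 3.21% in FDPS-KO and 4.43% in WT NK cells subtracted, the ratio of Isg15 in NK cells was -0.95. The subtraction left 12 of 33 genes lower in NK cells, against 4.71% of all genes, and 3 of 23 in B cells, against 8.65%.

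Per cell, fewer of the 35 genes were detected in FDPS-KO monocytes and macrophages once depth was made equal. Each cell was thinned to 3000 UMIs, which left out 60 FDPS-KO and 71 WT monocytes. At least 5 of the genes were detected in 64.4% of FDPS-KO monocytes (95% interval 60.7 to 68.0), against 96.7% of WT monocytes (95.5 to 97.6); unthinned, these were 86.3% and 98.4%. The median cell held 7 of the genes in FDPS-KO and 16 in WT monocytes. In macrophages the shares were 77.8% and 93.6%, with medians of 9 and 12 genes. In CD8 T cells they were 41.0% of FDPS-KO and 43.6% of WT cells, with a median of 4 genes in each, and in NK cells 32.8% (29.3 to 36.4) and 42.5% (35.8 to 49.3). CD4 T cells were at 56.3% (52.4 to 60.2) in FDPS-KO and 83.3% (70.7 to 92.1) in WT cells, the latter from 54 cells. In cDC1 the shares were alike, at 72.5% of FDPS-KO and 71.9% of WT cells.

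**Figure D5:**
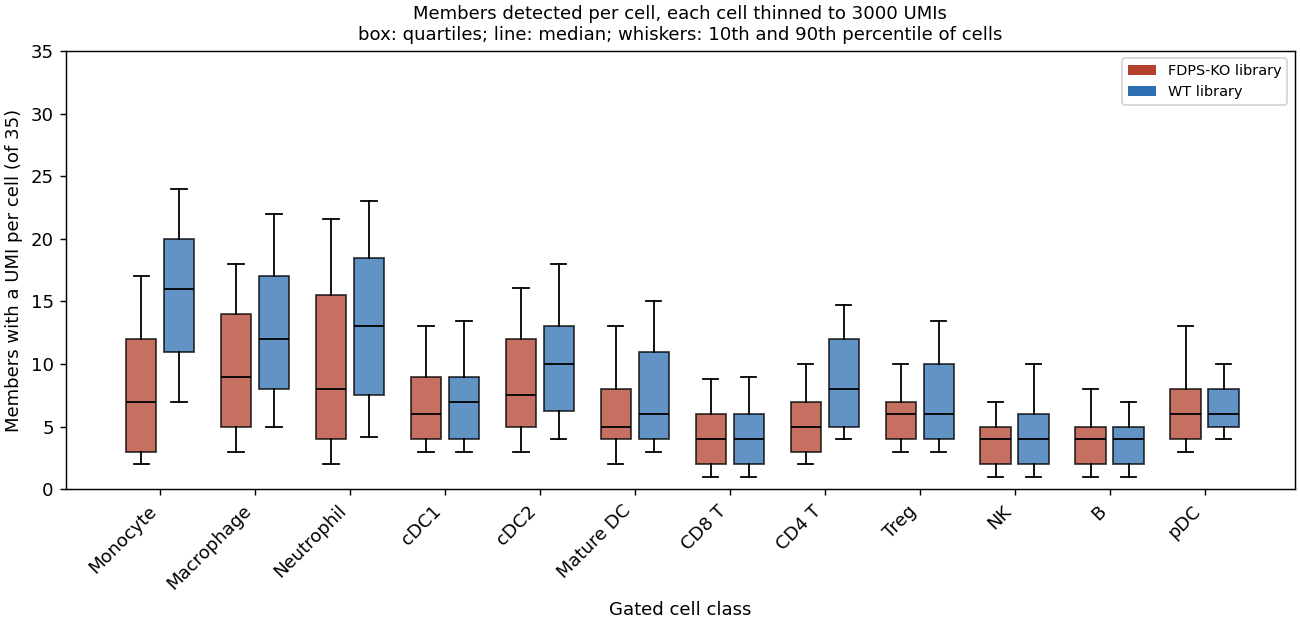
Number of the 35 genes with a UMI per cell (y axis) after thinning each cell to 3000 UMIs, by class, FDPS-KO (red) left of WT (blue); boxes are quartiles of cells, lines medians and whiskers the 10th and 90th percentiles. The median is 7 genes in FDPS-KO and 16 in WT monocytes, and 4 genes in CD8 T cells of either library.

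Some single genes were detected in fewer FDPS-KO cells as well, and others in more. A UMI of Isg15 was found in 28.2% of FDPS-KO monocytes, against 72.9% of WT monocytes, when thinned, and in 45.9% against 86.4% unthinned. Bst2 was found in 26.9% of FDPS-KO monocytes, against 66.8% of WT monocytes, and Rsad2 in 12.3% of FDPS-KO monocytes, against 44% of WT monocytes. For CD8 T cells, Isg15 was found in 9.01% of FDPS-KO CD8 T cells, against 20.9% of WT CD8 T cells. Across cells of a class, the rank correlation of Isg15 and Rsad2 over thinned cells was 0.33 in 691 FDPS-KO monocytes and 0.52 in 1314 WT monocytes. In neutrophils it was 0.66 (75 FDPS-KO cells) and 0.62 (103 WT cells). Cells of a library share tumours and depth, so these are descriptions.

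Most related genes outside the list were also lower in monocytes. Of 15 measured near copies of the 35 genes, such as Ifit3b, Ifit1bl1, Oas1g, Slfn9 and Ifi205, 13 were lower in monocytes, against 12.9% of all genes. Ifi205 was lowest, at 62.5 CPM in FDPS-KO monocytes, against 278 CPM in WT monocytes (log2 ratio -2.07). Near-identical copies share sequence, so the split of UMIs between Ifit3 and Ifit3b, Ifit1 and Ifit1bl1, Oas1a and Oas1g, Slfn8 and Slfn9, or the Phf11 and Trim30 genes is uncertain. Of 28 other measured interferon-stimulated genes, 20 were lower in monocytes and 0 higher (median -0.98), against 12.9% and 16.2% of all genes. Slfn4 was at 66.5 CPM in FDPS-KO monocytes, against 453 CPM in WT monocytes (log2 ratio -2.68). In macrophages 5 of 28 were lower and 2 higher, against 15.6% and 15.6% of all genes. In NK cells 1 of 25 was lower and 3 higher, against 5.25% and 7.9% of all genes. In NK cells the median of these other genes was -0.04, against -0.55 for the 33 measured genes of the list.

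Genes led by interferon-gamma, a cytokine of T and NK cells, included a pair that differed in direction. In monocytes 6 of 7 were lower and 1 higher, against 12.9% and 16.2% of all genes. Nos2, which makes nitric oxide, was at 12.5 CPM in FDPS-KO monocytes, against 239 CPM in WT monocytes (log2 ratio -3.80). Ciita, the master regulator of MHC class II genes, was at 289 CPM in FDPS-KO monocytes, against 132 CPM in WT monocytes (log2 ratio 1.10). The level of Ifng itself was at 139 CPM in FDPS-KO CD8 T cells, against 290.0 CPM in WT CD8 T cells (log2 ratio -1.04). Of the genes that sense nucleic acids upstream of interferon, 2 of 7 were lower in monocytes, against 12.9% of all genes. The sensor gene Ddx58 was lowest at 71.9 CPM in FDPS-KO monocytes, against 129 CPM in WT monocytes (log2 ratio -0.81). In macrophages 0 of 8 were past the fold, against 15.6% of all genes lower and 15.6% higher.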

How the data were processed

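The deposited values were counts, which are whole numbers of UMIs per gene and barcode. Per the file headers, Cell Ranger 7.2.0 wrote them. The genome build was mm10, per the submitters' processing notes. Sources used here do not name the gene annotation, the treatment of intronic reads or any ambient RNA correction. Gene spans came from GENCODE vM21, in which 32158 of 32285 identifiers (99.6%) were found.

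Barcodes with at least 200 genes and under 10% mitochondrial UMIs were kept. Scrublet in scanpy 1.11.5 marked 0 FDPS-KO and 160 WT cells by its automatic threshold, so the cells with the highest scores were removed at 0.8% per 1000 barcodes (635 FDPS-KO and 820 WT cells). Each cell got the lineage with the highest mean marker level (natural log of 1 plus UMIs per 10000), with at least 3 markers detected and a margin of 0.25 over the next. Cells of the monocyte and macrophage lineage were called macrophages at 10 or more UMIs of C1qa, C1qb and C1qc per 10000 and monocytes below that. T cells were split by UMIs of Cd8a and Cd8b1 (at least 2), Cd4 and Foxp3, and DCs by their highest subset score. In all, 801 FDPS-KO and 730 WT cells stayed unassigned. Clusters (Leiden, resolution 1, 2000 variable genes, 30 components) were made without the 35 genes, while other interferon-stimulated genes were not left out. Sums of UMIs over each class of a library were scaled to CPM and compared as log2 of CPM plus 5, without a test, since each group is 1 library. Intervals are exact: Poisson for levels, Clopper-Pearson for shares and conditional binomial for ratios, all at 95%, and cover counting error only. The scripts were tested on simulated data. Counting, thinning and motif search were done in Python 3.11.15 with numpy 2.4.6 and scipy 1.17.1.

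The gene list, marker lists and pathway lists were chosen with earlier results of these data known. In a class, the 3 lowest and 3 highest measured genes past 1.5-fold may be named, and every gene may be named by role with its lowest and highest class; the monocyte values of all roles and a few values chosen after they were seen (Bst2, Isg15 and Irf7 in further classes) go beyond that. Of the alternatives, 14 were planned and 2 were added after the data were seen: only clusters with cells of both libraries, and leaving out clusters led by markers of another class.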

Additional observations from a re-analysis of the deposited data

Results flagged for a closer look

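Genes of the list went in opposite directions, past 1.5-fold in each, in a pair of classes. Each class has 1 library per group, so the difference between classes was not tested. Ifit3 was at a log2 ratio of 0.80 in Tregs and -2.42 in monocytes, a difference of 3.23. Its Treg value was 0.07 with class taken from the cluster, its monocyte value was -1.09 with clusters weighted equally, and after thinning 4.55% of FDPS-KO and 5.80% of WT Tregs had a UMI of it. Ifi211 was at 0.85 in mature DCs and -2.27 in CD8 T cells, a difference of 3.12. Cmpk2 was at 0.88 in Tregs and -1.52 in monocytes, a difference of 2.40, from low levels in Tregs (22.9 CPM in FDPS-KO and 10.1 CPM in WT cells). The monocyte value of Cmpk2 turned to 0.26 with clusters weighted equally, and its Treg value was 0.55, within the fold, with each cell weighted equally.

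Ifi209 was at 1.01 in CD8 T cells and -1.31 in monocytes, a difference of 2.32; with clusters weighted equally these were 0.19 and -0.32. Slfn5 was at 0.79 in CD8 T cells and -1.37 in monocytes, a difference of 2.16, and its CD8 T value turned to -0.40 with clusters weighted equally. Oas3 was at 0.69 in cDC1 and -1.22 in monocytes, a difference of 1.91, and its cDC1 value was 0.05 with clusters weighted equally. Slfn8 was at 1.02 in CD8 T cells and -0.80 in monocytes, a difference of 1.82; with clusters weighted equally these were 0.40 and 0.13, so the monocyte value turned. Samd9l was at 0.74 in cDC1 and -0.64 in CD4 T cells, a difference of 1.39. Its CD4 T value turned to 0.09 with class taken from the cluster, and its cDC1 value was 0.53, within the fold, with clusters weighted equally.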

How the results depend on the processing

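No paired analysis was possible because each group has 1 library and no result comes from a test. The choice of clusters moved most. With only clusters with cells of both libraries, or with such clusters weighted equally, the median was -0.45 and -0.36 in monocytes. There 13 and 13 genes were lower, against 11.7% and 7.48% of all genes. In macrophages the median was 0.31 and 0.07, with 1 and 4 lower (all genes 21.6% and 18.5%) and 8 and 3 higher (18.8% and 18.8%). In CD4 T cells the median was -0.46 and -0.46, with 15 lower and 2 higher in each, against 17.5% and 23.6% of all genes. In CD8 T cells the median was -0.35 for equal weights. In CD8 T cells 3 genes were lower and 6 higher over the shared clusters, against 8 and 0 with equal weights, which also turned Slfn5 to -0.40. Of all genes 7.84% were lower and 17.1% higher over the shared clusters, and 3.69% and 6.35% with equal weights. In mature DCs both gave 8 lower and 6 higher, against 13.6% and 20.8% of all genes. In B cells both gave 0 higher, against 15.4% of all genes, and in cDC1 equal weights gave 0 higher, against 12.4%. Leaving out clusters led by another class gave 6 higher in mature DCs and 0 in B cells, against 20.7% and 15.4% of all genes.

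With the class taken from the cluster, 4 genes were lower in CD4 T cells (median -0.14) and 15 in neutrophils, against 9.34% and 20.1% of all genes. There 2 were higher in macrophages and 6 in mature DCs, against 23.5% and 22.2% of all genes. Without dividing cells 8 were lower in CD8 T cells, against 10.6% of all genes, and 0 were higher in macrophages and 5 in mature DCs, against 19.5% and 24.0%. With each cell weighted equally 15 were lower and 1 higher in Tregs, against 15.95% and 20.06% of all genes. With that weighting 0 were higher in macrophages and B cells, against 16.13% and 19.3% of all genes. It gave 1 higher in cDC1, 2 in cDC2 and 2 in mature DCs, against 12.43%, 22.14% and 19.13%. Scaling by the median ratio moved all genes by -0.17 (CD8 T cells) to 0.10 (neutrophils). It gave 8 lower in CD8 T cells (with the list's median at -0.07), against 14.0% of all genes. In cDC1 1 was then higher and in B cells 0, against 7.6% and 10.7%. Totals without ribosomal and mitochondrial genes gave 0 higher in macrophages and B cells, against 14.1% and 10.6% of all genes.

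Without removing doublets, 2 were lower in B cells (median -0.08), against 11.1% of all genes, and 1 higher in cDC1, against 11.7%. A mitochondrial limit of 5% gave 1 higher in cDC2, 3 in mature DCs and 5 in CD8 T cells, against 19.5%, 21.2% and 19.7% of all genes. Gene span subtraction gave 4 lower and 1 higher in cDC2, against 10.1% and 11.2% of all genes, and 3 lower in CD8 T cells, against 6.98%. Free RNA subtraction gave 3 lower in B cells, against 8.65% of all genes, and 2 higher in mature DCs, against 20.9%. A pseudocount of 1 CPM gave 2 higher in mature DCs, against 23.1% of all genes, and a filter at 1 CPM gave 2 higher in B cells, against 15.5%. Thinned to 1500 UMIs, at least 5 genes were found in 45.3% of FDPS-KO and 86.1% of WT monocytes, 54.8% and 74.6% of macrophages, 15.6% and 18.5% of CD8 T cells, and 10.0% and 16.6% of NK cells. Causes were not tested.

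Of 35 monocyte genes below 0, 25 were below 0 under all 14 alternatives run there, as were 25 of 33 in NK cells, 18 of 32 in CD4 T cells (12 alternatives) and 8 of 35 in macrophages. Above 0 under all alternatives were 0 in monocytes and CD4 T cells, 3 in NK cells and 6 in macrophages. The share of all measured genes that kept a sign was not computed. No value came from class by cluster for cDC2, from leaving out dividing cells for CD4 T cells, Tregs and cDC2, or from leaving out clusters led by another class for CD4 T cells. The shared-cluster value of CD4 T cells rests on 23 WT cells. The 57 WT CD4 T cells and 54 WT cDC2 limit those classes.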

Other observations

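The melanoma-like cells that passed the sort numbered 18 in the FDPS-KO library and 432 in the WT library, too few in the FDPS-KO library for a comparison, so their levels are given as values. Isg15 was at 147 CPM in FDPS-KO cells and 410.3 CPM in WT cells, Ifit3 at 84.5 and 237 CPM, and Rsad2 at 47.8 and 183 CPM. Bst2 was at 1299 CPM in FDPS-KO cells and 1164 CPM in WT cells, above the level in the 11 compared immune classes of either library but below that in pDCs. Samd9l was at 119 CPM in FDPS-KO cells and 95 CPM in WT cells. The median UMI count was 94406 in the FDPS-KO and 4897 in the WT melanoma-like cells.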
